A study of Mus musculus with 6 samples.

Results

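The genes described here carry a name that begins with Nduf, one of the letters a, b, c, s or v, and a digit, the naming scheme of the nuclear genes for mitochondrial complex I. Of 12629 genes named in the authors' comparison table, 41 have such a name, and all 41 were joined by gene identifier to the table of counts, which lists 56923 genes. The mRNA-Seq was done on left ventricles (LVs) of 3 WT mice and of 3 mice labelled Mutant, all 12 weeks old, each with a library of its own. The labels do not name the allele. The text on the mRNA-Seq in the published article gives it as *Lztr1* R409C/+, a heterozygous knock-in missense change. Such mice were made with CRISPR/Cas9, so that the change is present in every cell, and were backcrossed to C57BL/6J, and phenotypes were assessed in males. LZTR1 is an adaptor of a ubiquitin ligase for RAS family proteins, and heterozygous changes of this kind are found in Noonan syndrome, in which the heart muscle can thicken. Neither the number of founder lines nor the litters of the mice are given in the sources used here. A missense change does not have to lower its own mRNA, so the level of *Lztr1* does not check the labels. *Lztr1* was at 23.5 ± 1.11 CPM (SD, n = 3) in WT and 25.7 ± 2.03 CPM (SD, n = 3) in mutant mice.

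Complex I, the NADH:ubiquinone oxidoreductase, is the largest enzyme of the respiratory chain. Its matrix arm takes electrons from NADH and hands them along iron-sulfur clusters to ubiquinone, and its membrane arm pumps protons out of the matrix. Core subunits carry the cofactors and the pumping channels and are shared with bacteria. Accessory subunits surround the core and are needed for assembly and stability. The membrane core is encoded in mitochondrial DNA and the rest in the nucleus, so that both genomes have to supply 1 enzyme. Heart muscle lives largely on oxidative phosphorylation and is among the tissues richest in this complex.

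Of the 41 genes, 36 encode complex I subunits. They comprise 7 core subunits, 9 accessory subunits of the matrix arm and 20 accessory subunits of the membrane arm. The name also takes in *Ndufa4*, which is now held to be a subunit of cytochrome c oxidase, its relative *Ndufa4l2*, and 3 intronless copies of subunit genes, *Ndufb4c*, *Ndufs6b* and *Ndufa12-ps*. One carrier protein subunit, *Ndufab1*, lies outside the naming rule and is given apart. The annotation used for positions (GENCODE release 39 on GRCm39) holds 4 more genes of such names, *Ndufs5-ps*, *Ndufb4b*, *Ndufb11b* and *Ndufa11b*, which are not named in the authors' table.

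Values are CPM, the counts of a gene scaled to a common library total, after TMM normalization, which scales each library by a factor that centres most genes between mice. All 41 genes passed the filter on low counts, as did 17212 genes in all. Total counts were between 66130887 and 72641124 per mouse, and every subunit gene had at least 1766 counts in each mouse, so that the spread between mice and not the depth limits these comparisons. At this depth 3 counts corresponded to 0.0317 to 0.0541 CPM, which allows for counting error alone. A pair of libraries stood apart. Mitochondrially encoded genes took 13.8% of all counts in WT mouse 3 and 45.4% in mutant mouse 1, against 29.7% to 37.3% in the other 4 mice, and the TMM factors of these 2 libraries were 1.39 and 0.8001, the highest and the lowest of the 6. The ventricular marker *Myl2* was at 1300.5 to 3622 CPM and the atrial marker *Myl4* at most at 0.57 CPM. *Nppa*, an atrial gene that stressed ventricles also express, was at 37.7, 49.9 and 76.0 CPM in WT and 52.9, 107 and 76.3 CPM in mutant mice, with overlap. The 8 macrophage markers were all higher in mutant mice, 7 of them without overlap, with a summed level of 191 to 228 CPM in WT and 296 to 408 CPM in mutant mice, where 8.3% of all genes tested were higher without overlap and 51.4% were above 0, whereas 4 of 8 cardiomyocyte markers were higher and 4 lower. Red cell markers summed to 579 to 1479 CPM in WT and 1042 to 2625 CPM in mutant mice. The part of these differences in what follows was not tested. In such bulk samples, fewer cells of a type and less RNA per cell cannot be told apart.

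None of the 41 genes differed between genotypes at a false discovery rate of 0.05 (edgeR, quasi-likelihood F test, Benjamini-Hochberg over all genes tested), a threshold that 7 of 17212 genes (0.0407%) passed. The lowest adjusted p among the 41 was 0.446, for *Ndufs6*. DESeq2's Wald test also called 0 of them, but 150 of the 17212 genes. At an unadjusted p under 0.05 edgeR gave 5 of the 41 (3 to 12 when 1 mouse was left out). DESeq2 gave 6, and its share of all genes at that p is not given here. Of the 5 by edgeR, 4 were higher in mutant mice, where 5.77% of all genes were, and 1 was lower, where 2.86% of all genes were. The sign was less even. The fitted log2 fold change of mutant over WT was above 0 for 33 of 41 genes and below 0 for 8, and 51.4% of all genes tested lay above 0. The median log2 fold change was 0.20 over the 41 genes (0.086 to 0.29 when 1 mouse was left out) and 0.012 over all genes. The highest was 0.82 (*Ndufb4c*) and the lowest -0.52 (*Ndufs1*). Mutant values lay wholly above WT values in 4 of the 41, against 8.3% of all genes, and wholly below in 3, against 7.23% of all genes.

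**Figure D1:**
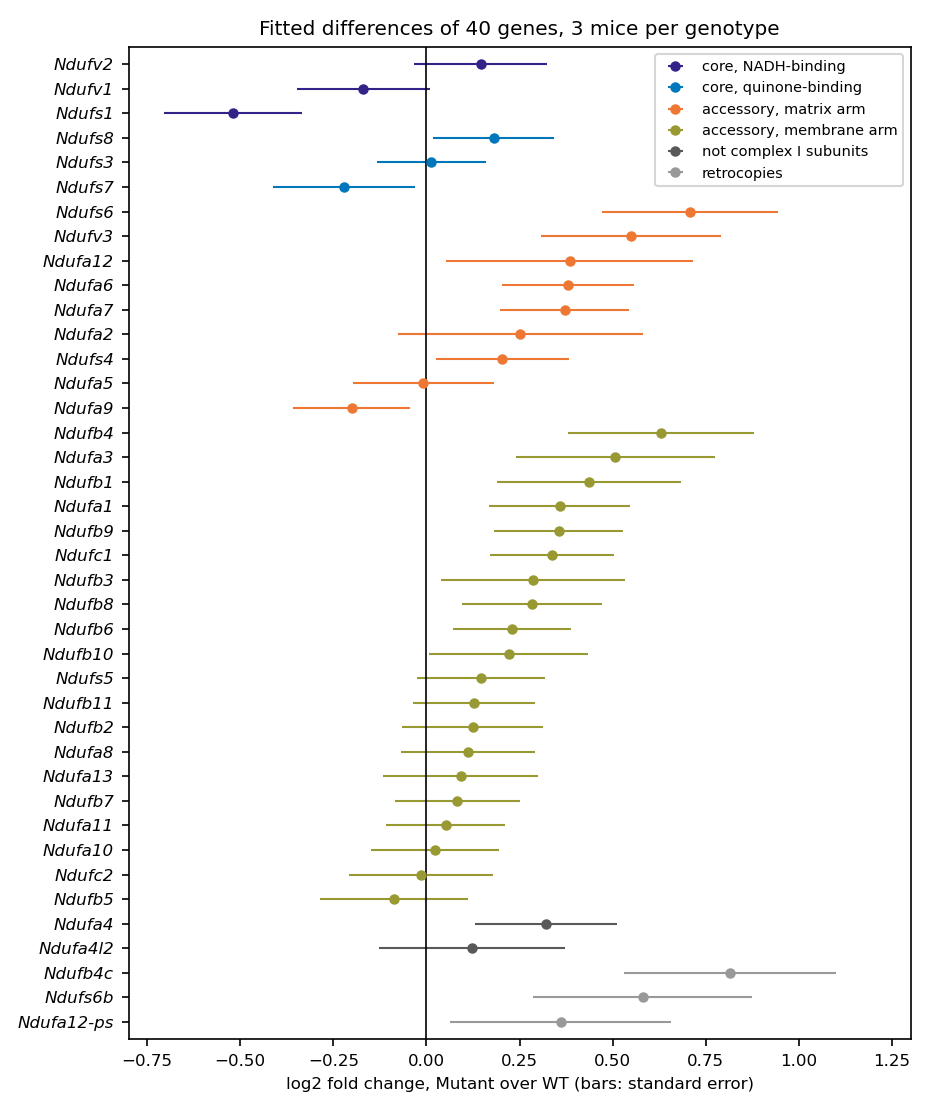
Fitted log2 fold change of mutant over WT (x axis) for 40 of the genes (y axis), with bars of 1 standard error, 3 mice per genotype, coloured by the role of the encoded protein. Of these, 33 lie right of 0 and 7 left of it, and 3 of the 7 are core subunits.

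The roles did not share 1 sign. Of the 7 core genes, 3 were higher and 4 lower in mutant mice, with a median log2 fold change of -0.17. Of the 29 accessory genes, 25 were higher and 4 lower, with a median of 0.23. That median was 0.14 without mutant mouse 1, 0.13 without mutant mouse 3 (21 higher and 8 lower) and 0.40 without mutant mouse 2. The counts moved with the scaling. With library size in place of TMM factors, which lowered the median of all genes to -0.14, 17 accessory genes were higher and 12 lower (median 0.042) and 1 core gene was higher and 6 lower (median -0.34). A correction for canonical exon length in each library gave 21 accessory genes higher and 8 lower (0.10) and 1 core gene higher and 6 lower (-0.25), and one for coding length gave 17 and 12 (0.071) and 2 and 5 (-0.17). Within the accessory genes, the matrix arm had 7 higher and 2 lower (median 0.37) and the membrane arm 18 higher and 2 lower (median 0.18). The summed level of the 7 core genes was 2482, 2497 and 2932 CPM in WT mice 1, 2 and 3 and 2238, 2326 and 2319.5 CPM in mutant mice 1, 2 and 3, so each mutant mouse lay below each WT mouse. The summed level of the 29 accessory genes was 3436, 3206 and 3489 CPM in WT and 4032, 3260.4 and 4032 CPM in mutant mice. Here mutant mice 1 and 3 lay above all WT mice and mutant mouse 2 lay in the WT range. Summed over all 41 genes, the groups overlapped, with 6294, 6053 and 6753 CPM in WT and 6832, 5945 and 6759.5 CPM in mutant mice. No test was made of these sums.

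**Figure D2:**
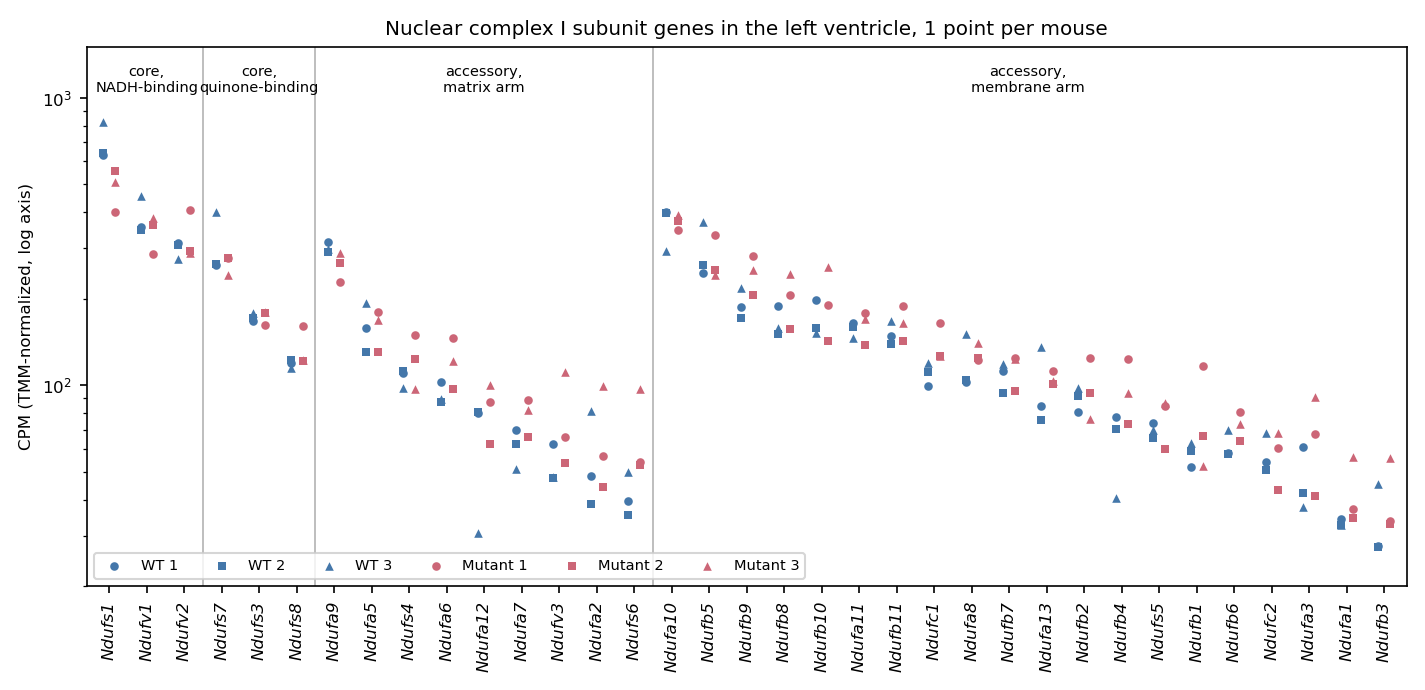
TMM-normalized CPM (y axis, log scale) of 35 complex I subunit genes (x axis), grouped by role and ordered by mean CPM, with 1 point per mouse (blue, WT; red, mutant; shape, mouse number). *Ndufs1* lies lower in all mutant mice, while most genes under 100 CPM have their highest point in mutant mouse 1 or 3.

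Among the NADH-binding core, *Ndufs1* encodes the largest subunit of the enzyme, a carrier of iron-sulfur clusters. *Ndufs1* (chr1:63182058-63216236, 19 exons, minus strand) was at 632, 643 and 824 CPM in WT and 401, 554 and 509 CPM in mutant mice. Every mutant mouse was below every WT mouse. WT mice averaged 699.6 ± 108 CPM (SD, n = 3) and mutant mice 488 ± 78.5 CPM (SD, n = 3). The fitted log2 fold change was -0.52 (standard error, SE, 0.19, unadjusted p = 0.0156 and adjusted p = 0.470 by edgeR), the lowest of the 41. *Ndufv1*, which binds NADH and FMN, the first electron acceptor, was at 356, 347 and 454 CPM in WT and 285, 362 and 381 CPM in mutant mice. WT mouse 3 was the highest and mutant mouse 1 the lowest. Mutant mice 2 and 3 both lay above WT mice 1 and 2. The log2 fold change of *Ndufv1* was -0.17 (SE 0.18). It was -0.036 without WT mouse 3, -0.061 without mutant mouse 1 and 0.082 without both. *Ndufv2*, the partner of *Ndufv1* at the entry of electrons, was at 311, 308 and 274 CPM in WT and 408, 292 and 287 CPM in mutant mice. Mutant mouse 1 was far above and WT mouse 3 below the other 4 mice. The log2 fold change was 0.15 (SE 0.18), and -0.046 without mutant mouse 1, 0.086 without WT mouse 3, 0.22 without mutant mouse 2 and 0.23 without mutant mouse 3.

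In the quinone-binding part, *Ndufs7*, which holds the last iron-sulfur cluster before ubiquinone, was at 263, 263 and 401 CPM in WT and 277, 276 and 241 CPM in mutant mice. Its log2 fold change was -0.22, but it rested on WT mouse 3, without which it was 0.0091. *Ndufs8*, another iron-sulfur subunit, was at 119, 122 and 114 CPM in WT and 160.4, 121 and 122 CPM in mutant mice, where mutant mouse 1 alone stood out. Its log2 fold change was 0.18 (SE 0.16), and 0.028 without that mouse. With the exon length correction, the log2 fold change was -0.38 for *Ndufs7* and -0.012 for *Ndufs8*, and for *Ndufv1* and *Ndufv2* it was -0.25 and 0.059. With library size only, *Ndufs7* was at -0.45, *Ndufs8* at 0.0073, *Ndufv1* at -0.34 and *Ndufv2* at -0.025. *Ndufs3*, a structural core subunit next to the quinone site, was at 167, 171 and 178 CPM in WT and 162, 179 and 180.1 CPM in mutant mice. It had the least difference of the core genes, with a log2 fold change of 0.013 (SE 0.15). Without WT mouse 3, the median of the 7 core genes was 0.0091 in place of -0.17, and without mutant mouse 1 it was -0.061, so the lower core median depended on these mice, although *Ndufs1* stayed below 0 in each of the 6 fits without 1 mouse, at -0.63 to -0.39, and was at -0.26 without both WT mouse 3 and mutant mouse 1.

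The 9 accessory genes of the matrix arm had log2 fold changes from -0.20 to 0.71. *Ndufs6*, a zinc-binding subunit that joins late in assembly, was at 39.6, 35.3 and 50.1 CPM in WT and 54.1, 52.9 and 97.3 CPM in mutant mice. The groups did not overlap, though mutant mice 1 and 2 lay close to WT mouse 3 and mutant mouse 3 was far above all others. The log2 fold change of *Ndufs6* (chr13:73464968-73476661) was 0.71 (SE 0.24, unadjusted p = 0.0110 and adjusted p = 0.446 by edgeR), and 0.36 without mutant mouse 3. *Ndufv3*, a small subunit on the NADH-binding module, was at 62.3, 47.7 and 47.9 CPM in WT and 66.0, 53.8 and 111 CPM in mutant mice. Its log2 fold change was 0.55 (SE 0.24, unadjusted p = 0.0422 by edgeR) and was 0.19 without mutant mouse 3. *Ndufa6*, which sits where the arms meet, was at 103, 87.2 and 89.8 CPM in WT and 146, 97.1 and 121 CPM in mutant mice (log2 fold change 0.38, SE 0.18, and 0.22 without mutant mouse 1). *Ndufa7* was at 69.7, 62.5 and 51.2 CPM in WT and 89.03, 66.2 and 81.9 CPM in mutant mice (log2 fold change 0.37, SE 0.17). In *Ndufv3*, *Ndufa6* and *Ndufa7* alike, mutant mouse 2 lay inside the WT range and mutant mice 1 and 3 above it. With the exon length correction, *Ndufa6* was at 0.15 and *Ndufa7* at 0.16, and with library size only they were at 0.21 and 0.24.

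*Ndufa9* went the other way. It encodes a subunit beside the quinone channel and was at 314, 290.3 and 297 CPM in WT and 229, 266 and 289 CPM in mutant mice. The groups did not overlap, but WT mouse 2 and mutant mouse 3 nearly met, and the log2 fold change was -0.20 (SE 0.16, adjusted p = 0.767 by edgeR), and -0.12 without mutant mouse 1, -0.34 with library size only and -0.30 with the exon length correction. The remaining matrix-arm genes overlapped. *Ndufs4*, whose loss impairs complex I in mice and people, had a log2 fold change of 0.20 (SE 0.18), and *Ndufa2* and *Ndufa5*, small subunits of the same arm, had 0.25 (SE 0.33) and -0.0084 (SE 0.19). In *Ndufa2*, mouse 3 was highest in both groups, at 81.2 CPM in WT and 99.3 CPM in mutant mice, and the other mice lay between 38.8 and 56.9 CPM. *Ndufa12* had a log2 fold change of 0.38 (SE 0.33), and its WT mouse 3 was at 30.6 CPM where the other WT mice were at 80.3 and 80.6 CPM.

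Of the 20 membrane-arm genes, *Ndufb4* had the highest log2 fold change. It was at 77.3, 70.5 and 40.4 CPM in WT and 124, 73.1 and 94.3 CPM in mutant mice, and the fit gave 0.63 (SE 0.25, unadjusted p = 0.0265 and adjusted p = 0.525 by edgeR). Mutant mouse 2 lay within the WT range. The log2 fold change was 0.39 without WT mouse 3, 0.41 without mutant mouse 1, 0.18 without both and 0.44 with the exon length correction. *Ndufc1*, one of the smallest subunits, was at 99.7, 111 and 119.6 CPM in WT and 165, 126 and 126 CPM in mutant mice. Its groups did not overlap, and the log2 fold change was 0.34 (SE 0.17), and 0.19 without mutant mouse 1, 0.14 with library size only and 0.083 with the coding length correction. *Ndufa1*, an X-linked subunit of a single membrane span, was at 34.1, 32.7 and 32.7 CPM in WT and 37.1, 34.5 and 56.0 CPM in mutant mice. These groups also did not overlap, but mutant mice 1 and 2 were close to WT and the log2 fold change of 0.36 was 0.11 without mutant mouse 3, 0.23 with library size only, 0.14 with the exon length correction and 0.097 with the coding length correction. *Ndufb3*, of the lower end of the levels, was at 27.7, 27.4 and 45.4 CPM in WT and 33.7, 32.8 and 56.0 CPM in mutant mice, with mouse 3 highest in both groups and a log2 fold change of 0.29 (SE 0.25). Without mutant mouse 3 it was -0.011, without WT mouse 3 it was 0.57, and without WT mouse 1 or 2 it was 0.17 or 0.16, and it was 0.091 with library size only and 0.10 with the coding length correction. For the other membrane-arm genes, log2 fold changes lay between -0.088 (*Ndufb5*) and 0.51 (*Ndufa3*), and all groups overlapped. *Ndufa10*, which resembles nucleoside kinases, was at 364 ± 61.6 CPM (SD, n = 3) in WT and 369.6 ± 22.3 CPM (SD, n = 3) in mutant mice.

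The rest of the arm is given to complete the list. *Ndufb9*, a LYR-motif protein that binds the acyl carrier protein at the far end of the membrane arm, was at 187, 171 and 218 CPM in WT and 281, 206 and 251 CPM in mutant mice. Mutant mice 1 and 3 were above all WT mice, and the log2 fold change was 0.36 (SE 0.17). *Ndufa3*, a single-span subunit near the junction of the arms, was at 61.1, 42.3 and 37.6 CPM in WT and 67.8, 41.3 and 91.2 CPM in mutant mice, again with mutant mice 1 and 3 on top. *Ndufb1* differed in that mutant mouse 1 alone was high, at 116 CPM, while the other 5 mice lay between 52.1 and 66.5 CPM. *Ndufb8* and *Ndufb10*, neighbours in the distal membrane arm, were highest in mutant mouse 3, at 244 and 258 CPM, and had log2 fold changes of 0.28 (SE 0.19) and 0.22 (SE 0.21). In *Ndufb8*, mutant mouse 1 was also above the WT mice, at 206 CPM, and mutant mouse 2 lay in the WT range, at 156 CPM. In *Ndufb10*, mutant mouse 1 lay in the WT range (190 CPM) and mutant mouse 2 below it (143 CPM), so its higher mutant mean rested on mutant mouse 3. *Ndufa8* had a log2 fold change of 0.11 (SE 0.18), *Ndufs5* 0.15 (SE 0.17) and *Ndufb7* 0.083 (SE 0.17), and all their groups overlapped. *Ndufa13*, also known as GRIM-19 and as a partner of STAT3, was at 84.5, 75.9 and 136 CPM in WT and 112, 101 and 103 CPM in mutant mice. It had its highest value in WT mouse 3, as did *Ndufb5*, at 368 CPM, and *Ndufa8*, at 150.1 CPM. *Ndufa11*, *Ndufb2*, *Ndufb6*, *Ndufb11* and *Ndufc2* had log2 fold changes of 0.051, 0.12, 0.23, 0.13 and -0.015, each with an SE of 0.16 to 0.19.

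*Ndufa4* and *Ndufa4l2* are no longer counted in complex I. *Ndufa4* was at 345, 323 and 312 CPM in WT and 528, 329 and 368 CPM in mutant mice (log2 fold change 0.32, SE 0.19), and mutant mouse 2 lay in the WT range. Without mutant mouse 1 the log2 fold change was 0.086, with library size only 0.14, and with the exon and coding length corrections 0.074 and 0.11. *Ndufa4l2*, known as a gene that hypoxia induces, was at 8.72, 7.36 and 8.11 CPM in WT and 6.19, 7.55 and 12.6 CPM in mutant mice. Its mutant values lay on both sides of the WT range, and the sign of its log2 fold change of 0.12 (SE 0.25) turned in 5 of 19 alternatives, among them the omission of mutant mouse 3 (-0.23).

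The intronless copies show how closely some counts are tied. *Ndufb4c* (chr15:73681356-73681745, 1 exon) matches the whole coding sequence of *Ndufb4* over 390 bases without a mismatch, so a read from that stretch cannot be assigned to either gene by its sequence. *Ndufa12-ps* has 2 mismatches to *Ndufa12* over 402 aligned bases, and *Ndufs6b* has 12 mismatches to *Ndufs6* over 348. The stretches below are the first 90 coding bases of *Ndufb4* and *Ndufs6* and coding bases 90 to 179 of *Ndufa12*, each with its copy underneath, from the GENCODE transcripts, 5′ to 3′. They are shown because the identity decides which gene a read counts for, and capitals mark bases that differ within a pair.
Ndufb4: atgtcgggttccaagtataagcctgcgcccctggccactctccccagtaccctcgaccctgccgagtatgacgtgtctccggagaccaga
Ndufb4c: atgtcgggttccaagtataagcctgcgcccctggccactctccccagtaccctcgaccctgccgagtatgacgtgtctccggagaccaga
Ndufa12: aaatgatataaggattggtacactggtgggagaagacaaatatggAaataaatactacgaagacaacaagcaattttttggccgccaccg
Ndufa12-ps: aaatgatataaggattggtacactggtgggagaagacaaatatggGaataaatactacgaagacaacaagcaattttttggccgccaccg
Ndufs6: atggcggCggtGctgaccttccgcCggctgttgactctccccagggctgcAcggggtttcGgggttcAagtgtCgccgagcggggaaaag
Ndufs6b: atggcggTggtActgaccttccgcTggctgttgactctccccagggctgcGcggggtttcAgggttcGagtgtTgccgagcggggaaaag

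*Ndufb4c* was at 8.29, 6.82 and 4.82 CPM in WT and 16.7, 10.6 and 7.70 CPM in mutant mice. Its log2 fold change of 0.82 (SE 0.29, unadjusted p = 0.0142 and adjusted p = 0.465 by edgeR) was the highest of the 41 genes. Without mutant mouse 1 it was 0.46, below the 0.84 of *Ndufs6* in the same fit, and without WT mouse 3 and mutant mouse 1 it was 0.28. With the exon length correction it was 0.53, again below *Ndufs6* (0.70). *Ndufb4b*, a further copy outside the naming in the authors' table, was at 8.25, 7.60 and 4.93 CPM in WT and 16.2, 10.95 and 7.86 CPM in mutant mice, nearly the same value as *Ndufb4c* in each mouse. If each read was counted once, the sum of *Ndufb4*, *Ndufb4b* and *Ndufb4c* does not depend on how reads were divided among them. That sum was 93.9, 84.9 and 50.1 CPM in WT and 157, 94.7 and 109.8 CPM in mutant mice. On it the mutant mice lay above the WT mice with no overlap, which *Ndufb4* alone did not show, but WT mouse 1 and mutant mouse 2 nearly met. *Ndufa12-ps* was at 12.0, 11.2 and 5.54 CPM in WT and 10.4, 9.47 and 16.9 CPM in mutant mice, and, like *Ndufa12*, it was lowest in WT mouse 3. *Ndufs6b* was at 1.15, 1.48 and 1.26 CPM in WT and 1.86, 1.92 and 2.03 CPM in mutant mice, without overlap and with a log2 fold change of 0.58 (SE 0.29, adjusted p = 0.615 by edgeR), which the exon length correction lowered to 0.34. In all, 14 of the 41 genes match another annotated gene with at least 1 count at 90% or more over 200 bases or more. For *Ndufa7*, *Ndufa11*, *Ndufb2* and *Ndufb3* that gene had at most 3 counts in any mouse. For *Ndufb9* it is *Gm49356*, which shares 201 bases with it at the same locus and had at most 11 counts. For the rest of the 14, the split of their reads is uncertain. *Ndufs3* is one of them, with 98.7% identity over 669 bases to *Gm12251*, which was at 14.2 CPM in WT and 13.2 CPM in mutant mice. Exons of 23 of the 41 also share bases with another annotated gene. *Ndufa6* shares 348 of 590 bases with *Smdt1* on the other strand, and *Ndufs1* shares 297 of 3613 with *Eef1b2*. Whether the counting used strand is not given in the sources used here.

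Single mice differed within both groups. Each subunit gene was centred on its mean over the 6 mice, and the median over the 36 genes was -0.040, -0.15 and -0.014 in WT mice 1, 2 and 3 and 0.18, -0.081 and 0.12 in mutant mice 1, 2 and 3, on the log2 scale. Mutant mice 1 and 3 lay above all WT mice and mutant mouse 2 lay among them. Length was also compared between mice, over the 17127 tested genes with a canonical length and not the subunit genes alone. For this, log2 CPM was first centred gene by gene across the 6 libraries and then fitted on log2 length. The slope is therefore relative to the other mice and is not that of the level itself. In mutant mice 1 and 3 the slope was -0.099 and -0.031. It was above 0 in mutant mouse 2 (0.023) and in WT mice 1, 2 and 3 (0.027, 0.061 and 0.019). The part of this slope in the position of the mice was not tested. Of the 36 genes, 14 had their highest value in mutant mouse 1, 11 in mutant mouse 3, 9 in WT mouse 3, 2 in WT mouse 1 and none in WT mouse 2 or mutant mouse 2. The lowest value fell in WT mouse 2 for 11 genes and in WT mouse 3 for 8. The coefficient of variation between mice had a median of 13.5% in WT and 17.3% in mutant mice and was higher in mutant mice for 26 of 36 genes. No value over all genes stands beside these, so they do not show whether the spread is particular to the subunit genes. Leaving out mutant mouse 1, whose mitochondrial share was highest, gave a median log2 fold change of 0.086 over the 41 genes, and leaving out mutant mouse 2 gave 0.29. Without mutant mouse 3 it was 0.11, with 27 of 41 genes higher. Without both WT mouse 3 and mutant mouse 1 the median was 0.10, with 31 of 41 genes higher, a core median of -0.023 and an accessory median of 0.17.

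**Figure D3:**
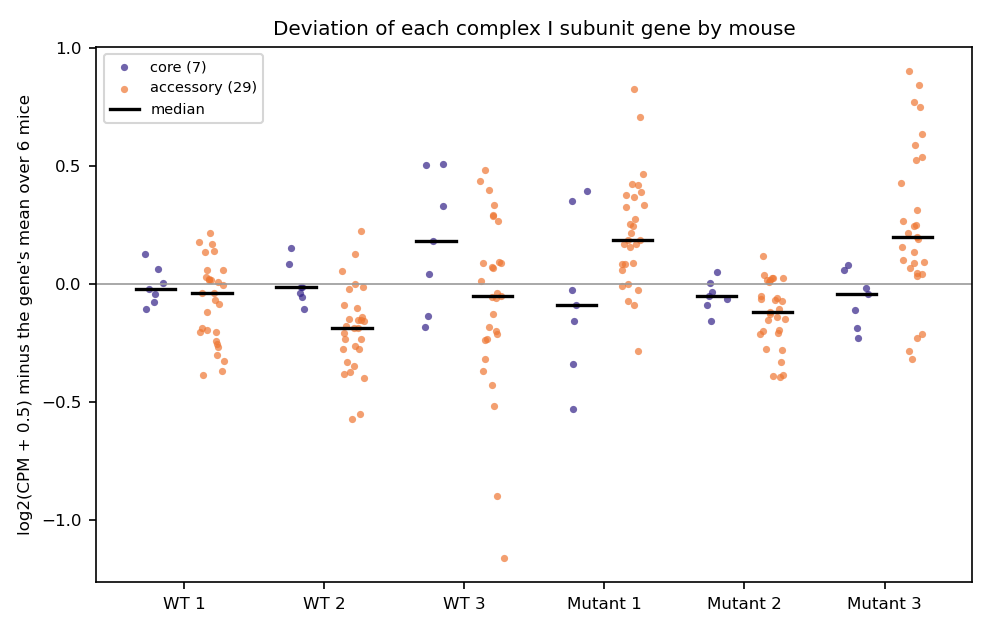
Deviation of log2(CPM + 0.5) from the gene's mean over 6 mice (y axis) for each of the 36 subunit genes in each mouse (x axis), core genes in blue and accessory genes in orange, with horizontal bars at the medians. Accessory genes sit highest in mutant mice 1 and 3, and mutant mouse 2 falls among the WT mice.

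Subunits of 1 enzyme had very unequal transcript levels. Per kilobase of the exons of the canonical transcript, the WT level ranged from 11.6 CPM per kb (*Ndufs6*) to 371 CPM per kb (*Ndufs7*), a 32.0-fold range, with a median of 98.3 CPM per kb. *Ndufb3* was next lowest at 15.4 CPM per kb. The core genes had a median of 194 CPM per kb, against 86.3 in the accessory matrix arm and 89.6 in the accessory membrane arm. Transcript length matters for these ranks. The canonical *Ndufs6* transcript is 3593 bases long for a coding length of 348 bases, and per kilobase of coding sequence *Ndufs6* was at 119.7 CPM. On that scale the range was 13.7-fold, from *Ndufv3* (37.5 CPM per coding kb) to *Ndufb5* (515 CPM per coding kb). Per coding kb, the core genes had a median of 321 CPM and the accessory genes 231 CPM, a smaller gap than per kilobase of exon. Spearman's rho between the scales was 0.56 across the 36 genes.

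Across the 36 subunit genes, the higher the CPM, the lower was the fitted difference. Pearson's r between the mean log2 CPM over the 6 mice, which is not per length, and the log2 fold change was -0.74 and Spearman's rho was -0.69. This is a description across genes measured in the same 6 libraries, not a test over mice. Of the 12 genes with the highest CPM, 6 were higher and 6 lower in mutant mice (median -0.038). Of the 12 in the middle, 11 were higher (median 0.13), and of the 12 with the lowest CPM, 11 were higher (median 0.36). The relation held within the 29 accessory genes, where r was -0.59. Taken 1 mutant mouse at a time against the WT mean, r was -0.56, -0.36 and -0.68 in mutant mice 1, 2 and 3, while each WT mouse against the other WT mice gave -0.17, 0.059 and 0.070. The values of the mutant mice share 1 WT mean, and WT mouse 1 also had a negative r, so the sign in 1 mouse alone is not evidence of the relation. Over all alternatives r stayed between -0.76 and -0.52. Across 41 nuclear genes for subunits of complexes II, III and IV and of ATP synthase, r was -0.69. There it was -0.64, -0.17 and -0.69 in mutant mice 1, 2 and 3 and -0.37, 0.017 and 0.21 in WT mice 1, 2 and 3 against the other WT mice, so that mutant mouse 2 lay within the range of the WT mice. Across all genes tested it was -0.20.

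**Figure D4:**
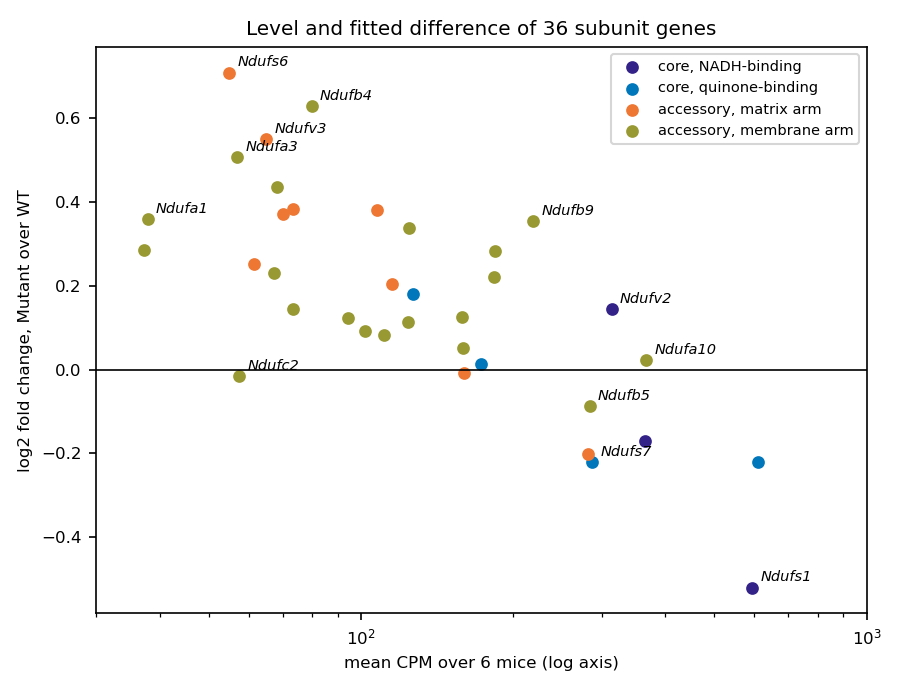
Mean CPM over 6 mice (x axis, log scale) and log2 fold change of mutant over WT (y axis) for the 36 subunit genes, coloured by role. Genes at the left, such as *Ndufs6* and *Ndufv3*, lie above 0 and *Ndufs1* at the right lies below it.

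Length also moved with the difference over the whole table. Among all tested genes with an annotated length, shorter transcripts had higher log2 fold changes, with a median of 0.23 up to 500 bases and -0.038 above 2500 bases of canonical exon. The subunit transcripts are short, with a median of 1034.5 bases against 2997 bases for all tested genes. Classes by coding length were compared over the tested protein-coding genes with a mean level no lower than that of the lowest subunit gene, and not over all genes tested. Among these, the 55 genes of up to 300 bases had a median of 0.23 and the 1464 genes above 1500 bases a median of -0.16, and the subunit genes in these classes had 0.36 (5 genes) and -0.52 (*Ndufs1* alone). In between, the 13 subunit genes of over 300 to 450 bases had 0.15, as did the 156 such genes of that class, and the 8 of over 450 to 600 bases had 0.21 where the 213 such genes had 0.011. The 3 of over 600 to 1000 bases had 0.15 where the 535 such genes had -0.013. The 6 of over 1000 to 1500 bases had -0.078, near the -0.095 of the 691 such genes. By canonical exon length, the 6 subunit genes above 2500 bases had 0.16 where all tested genes had -0.038. The 5 of over 1000 to 1500 bases had 0.013 where all tested genes had 0.12. Pearson's r of coding length with the log2 fold change across the 36 genes was -0.59, and that of canonical exon length was -0.18. After a correction for canonical exon length in each library, the median of the 41 genes was 0.063 with 26 higher, beside a median of -0.0081 over all genes. Corrections for coding length, chosen after the data were seen, gave 0.061 with 23 higher. The 3 intronless copies have no annotated coding length and were left uncorrected among the 41. With library size in place of TMM, the median was 0.032 with 23 higher, and the median of all genes moved to -0.14, so that relative to all genes the 41 lay 0.18 higher, close to the 0.19 under TMM.

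**Figure D5:**
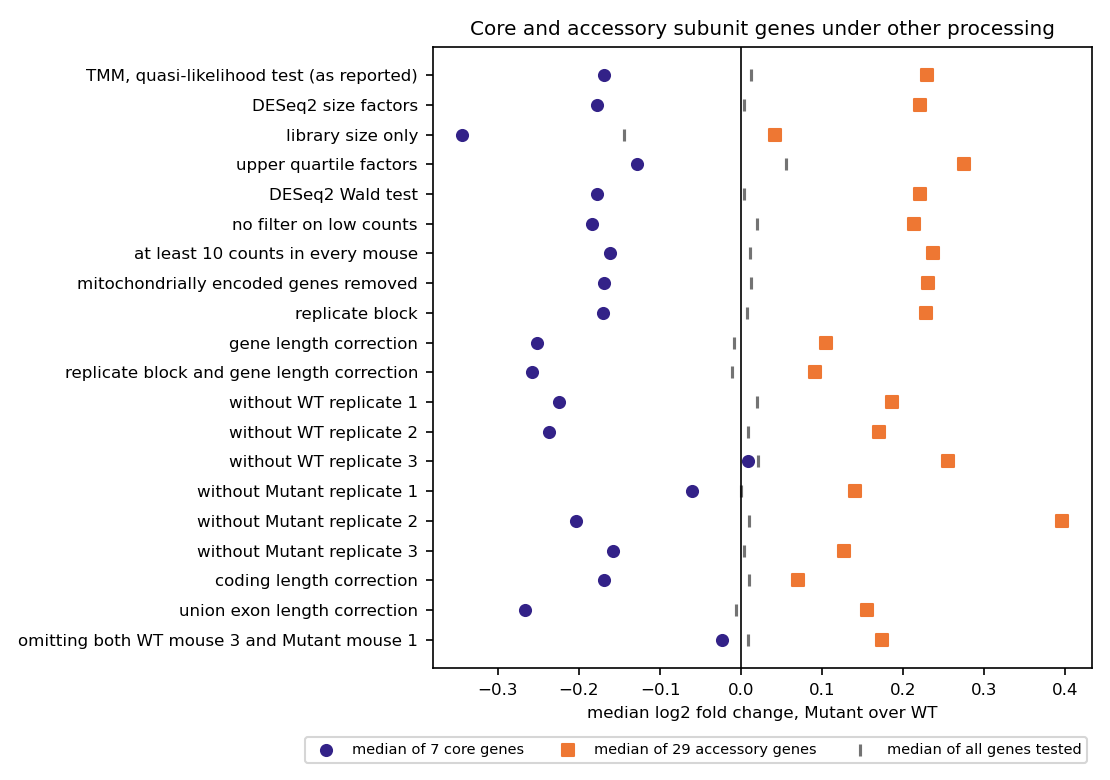
Median log2 fold change of mutant over WT (x axis) of the 7 core genes, the 29 accessory genes and all genes tested, under the processing reported and each alternative (y axis). The accessory median lies above the core median in every setting shown, while its distance from 0 and the sign of the core median vary with the setting.

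The rest of the pathway was read from further lists. The 7 complex I genes of the mitochondrial genome, which encode the proton-pumping membrane core, all had log2 fold changes above 0 (median 0.43), but none had an unadjusted p under 0.05 by edgeR and all groups overlapped. Their summed level was 153998, 157029 and 29414 CPM in WT and 207062, 143161 and 99473 CPM in mutant mice, and WT mouse 3 and mutant mouse 1 were at the ends, as they were for the share of mitochondrial counts. WT mice 1 and 2 lay above the mutant mean of that sum, 149899 CPM, so the lower WT mean rested on WT mouse 3. The same held for *mt-Nd1*, *mt-Nd2*, *mt-Nd4* and *mt-Nd4l*, in which WT mice 1 and 2 were each above the mutant mean. In *mt-Nd5* they lay on both sides of it, and in *mt-Nd3* and *mt-Nd6* both were below it. *mt-Nd3* was at 1858, 2082 and 566 CPM in WT and 3593, 1818 and 1803 CPM in mutant mice, and *mt-Nd6* at 13659, 13457 and 6867 CPM against 21314, 15587 and 8920.4 CPM. For *mt-Nd3* only mutant mouse 1 left the WT range, and for *mt-Nd6* mutant mice 1 and 2 did. *Ndufab1*, the acyl carrier protein that also serves as a complex I subunit, was at 256 ± 10.5 CPM (SD, n = 3) in WT and 243 ± 24.0 CPM (SD, n = 3) in mutant mice, a log2 fold change of -0.077.

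Of 18 tested assembly factors, which build the enzyme without being part of it, 8 were higher and 10 lower, and none had an unadjusted p under 0.05 by edgeR. *Nubpl*, which delivers iron-sulfur clusters to complex I, was at 7.67, 7.97 and 9.09 CPM in WT and 6.21, 6.87 and 6.24 CPM in mutant mice, without overlap (log2 fold change -0.36, adjusted p = 0.622 by edgeR). *Ndufaf8* was at 4.18, 5.61 and 8.45 CPM in WT and 8.72, 5.90 and 10.7 CPM in mutant mice, where mutant mouse 2 overlapped. Of 10 transcription regulators of nuclear respiratory genes, 2 were higher and 8 lower (median -0.18), again none with an unadjusted p under 0.05. Mutant values lay wholly below WT values for 3 of them, and for 7.23% of all genes tested. *Esrrg*, an estrogen-related receptor of heart muscle, was at 51.8, 63.5 and 48.9 CPM in WT and 42.5, 48.5 and 41.4 CPM in mutant mice, and *Gabpa*, the DNA-binding part of the factor GABP, at 61.4, 59.3 and 59.8 CPM in WT and 47.6, 53.9 and 49.1 CPM in mutant mice. The third was *Gabpb1*, the partner of *Gabpa*, with a log2 fold change of -0.22. Among 41 tested subunit genes of the other complexes, 27 were higher and 14 lower (median 0.11). At an unadjusted p under 0.05 by edgeR, 5 were higher and 0 lower. Over all genes tested, 51.4% were above 0, and at that p 5.77% were higher and 2.86% lower. *Uqcr11* of complex III was at 49.3, 37.5 and 43.0 CPM in WT and 66.4, 52.6 and 102 CPM in mutant mice, and *Cox5b* of complex IV at 103, 75.1 and 60.0 CPM in WT and 102, 99.9 and 180.4 CPM in mutant mice. *Uqcr11* had no overlap and *Cox5b* did. Mutant values lay wholly above WT values for 4 of these 41, against 8.3% of all genes tested, and wholly below for 4, against 7.23%. The 4 below were *Atp5a1*, *Sdhc*, *Uqcrfs1* and *Atp5b*, with log2 fold changes of -0.45, -0.32, -0.29 and -0.28. The summed level of these 41 was 20409, 19738 and 23548.5 CPM in WT and 19796, 19076 and 20667.5 CPM in mutant mice, with overlap.

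The promoters of the 36 subunit genes were searched on both strands, from 250 bases before to 30 bases after the start of the canonical transcript, for short motifs of known regulators of respiratory genes. The palindrome of 10 bases bound by NRF1, printed in capitals in the first window below, is in 1 of 36 (2.78%) and in 1.48% of 13966 promoters of tested protein-coding genes. CCGGAAG, the core bound by ETS factors such as GABP, is in 3 (8.33%) against 13.2%, namely *Ndufb6*, *Ndufb9* and *Ndufs8*. AAGATGGC, bound by YY1, is in 2 (5.56%) against 2.13%, namely *Ndufa9* and *Ndufa3*. TCAAGGTCA, bound by estrogen-related receptors, is in 0 against 0.351%. At least 1 of these motifs is in 6 of 36 promoters (16.7%) and in 16.4% of all, so exact matches were about as frequent in the subunit genes as elsewhere. The windows below show the NRF1 match, the only one, and a YY1 match in *Ndufa9*, a gene whose groups did not overlap, read from GRCm39 on the minus strand, 5′ to 3′, with the motif in capitals. They are chr8:70355953-70356012 and chr6:126826069-126826128.
Ndufa13: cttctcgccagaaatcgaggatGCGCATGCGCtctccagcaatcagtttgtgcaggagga
Ndufa9: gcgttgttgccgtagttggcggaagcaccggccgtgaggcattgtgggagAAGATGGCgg
The first match lies 118 to 109 bases before the start of *Ndufa13*, whose groups overlapped (log2 fold change 0.091, SE 0.21). A match of letters does not show that a factor binds there.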

How the data were processed

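LV RNA of 3 WT and 3 mutant mice was sequenced, 1 library per mouse. Per the labels and the study's methods, the authors trimmed reads with Trim Galore, aligned them to GRCm39 with HISAT2, excluded rRNA and used StringTie. The annotation release is not given in the sources used here. The authors deposited counts, whole numbers for each gene and mouse. How these were extracted from StringTie is not given in the sources used here. The authors' comparison table holds log2 fold changes, average log2 CPM and p-values from edgeR. Only its gene names were used.

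Counts were filtered (filterByExpr), normalized (TMM) and tested with edgeR 4.0.16 in R 4.3.3 by the robust quasi-likelihood test on genotype, two-sided, with Benjamini-Hochberg adjustment over 17212 genes at 0.05. With 3 mice against 3, an exact permutation test of 1 gene cannot give a p below 0.1, the value of every gene without overlap. The steps were tested on simulated data. Alternatives used DESeq2 1.42.0 (size factors, Wald test), library size, upper quartile, no filter, at least 10 counts in every mouse, mitochondrial genes removed, a replicate block, a correction for gene length, and omission of each mouse. Corrections for coding and union exon length and the omission of 2 mice were added after seeing the data. Positions, lengths and sequences came from GENCODE release 39. Overlap of a copy was found with BLAST.

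The genes and lists were chosen with earlier results of these data known. Values in each mouse are given for the core genes, the 6 higher and 4 lower genes of smallest p, genes whose groups do not overlap, the 2 highest and 2 lowest levels per kb, *Ndufa4* and *Ndufa4l2*, *Ndufa12-ps* as a copy, and the 2 genes of smallest p in other lists. *Gabpb1*, *Ndufab1*, *Ndufb4b* and single further genes were added for counts that they complete. A further gene, counted in the totals, is not reported here by name.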

Additional observations from a re-analysis of the deposited data

How the results depend on the processing

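No alternative called any of the 41 genes at a false discovery rate of 0.05, nor did edgeR at 0.1. The number higher in mutant mice was 33 and ranged from 23 to 35, and their median log2 fold change of 0.20 was 0.032 with library size only, 0.063 with the gene length correction, 0.067 with the replicate block and gene length correction, 0.061 with the coding length correction, and 0.086 to 0.29 when 1 mouse was left out. The number with an unadjusted p under 0.05 by edgeR was 5, and it was 1 with library size only, 9 with upper quartile factors, 2 with the gene length correction, 3 with the replicate block and gene length correction, 2 with the union exon length correction, and 3 to 12 when 1 mouse was left out. Whether the replicate numbers pair the mice is not given in the sources used here and was not tested. Correlations between same-numbered mice were -0.0013, 0.022 and -0.057. Of the mutant mice only number 2 correlated best with the WT mouse of its own number. With the replicate block alone, 33 genes were higher with a median of 0.18, and 1 gene of the whole table was called in place of 7. DESeq2's Wald test called 150 genes of the whole table.

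Of 20 genes with values in the text, 13 kept their sign in all 19 alternatives. *Ndufa4l2* turned to -0.025 with the gene length correction, -0.094 with the replicate block and gene length correction, -0.092 with the coding and -0.043 with the union exon length correction, and ranged from -0.23 to 0.31 without 1 mouse. *Ndufs3* turned to -0.14 with library size only, -0.0017 without a filter, -0.092 with the gene length correction, -0.10 with the replicate block and gene length correction, -0.018 with the coding and -0.0063 with the union exon length correction, and -0.015 to 0.052 without 1 mouse. *Ndufs8* turned to -0.012 with the gene length correction and -0.011 with the replicate block added. *Ndufv2* turned to -0.025 with library size only, -0.095 without WT mouse 3 and mutant mouse 1, and ranged from -0.046 to 0.23 without 1 mouse. *Ndufv1* turned to 0.082 without WT mouse 3 and mutant mouse 1. Without 1 mouse, *Ndufb3* ranged from -0.011 to 0.57 and *Ndufs7* from -0.33 to 0.0091. The causes were not tested. Copies and overlapping exons leave the counts of *Ndufb4*, *Ndufa12* and *Ndufs6* uncertain.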
